A study of Mus musculus with 6 samples.

Results

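The immediate early genes described here are 10 transcription factor genes of mouse heart: Egr1, Egr2, Egr3, Fos, Fosb, Jun, Junb, Jund, Atf3 and Nr4a1. They were found by gene symbol in the deposited table of array values and had 12 probes, out of 34885 probes with 1 symbol for 19057 genes. Egr3 and Junb had 2 probes each and the other genes 1. A gene was represented by its brightest probe, and 8 of the 10 genes lay above the intensity filter of 58.7 and were tested. Fosb, with a geometric mean intensity of 53.0 over the 6 arrays, and Nr4a1, with 39.7, lay below it.

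Hearts came from FVB mice labelled 8 weeks old (the design text gives the age in years) and were taken 3 weeks after surgery. The groups were JMJD2A-transgenic mice after thoracic aortic constriction (TAC, a band on the aorta that loads the left ventricle with pressure; 2 arrays), JMJD2A-transgenic mice after sham surgery (1 array), wild-type mice after TAC (2 arrays) and wild-type mice after sham surgery (1 array). JMJD2A is a histone lysine demethylase encoded by Kdm4a, and the transgene is called heart specific; the labels name neither the promoter that drives it nor the number of transgenic lines. Nor is it stated whether an array holds 1 animal or a pool, so the p-values measure only the spread between these arrays, which may be technical.

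Immediate early genes are switched on within minutes of a growth factor, stretch or stress signal, before any new protein has to be made. Kinases of the MAPK cascades reach the promoters through serum response factor with its ELK partners, which bind a CArG box, and through CREB, which binds sites holding TGACG. The EGR proteins are zinc finger factors; FOS and JUN proteins pair to form AP-1, which binds TGANTCA; ATF3 pairs with JUN proteins; NR4A1 is an orphan nuclear receptor. In heart muscle they are best known for a burst soon after pressure loading or stimulation by hypertrophic agonists.

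Promoter sequence is shown for Egr2 and Fos, whose intensities were spread widely over the arrays, and for Jun, whose intensities were not. The sequences are RefSeq's for GRCm38.p6 and run 5′ to 3′ on the gene's strand. The 30 bases of Egr2 (chr10:67537791-67537820, plus strand) lie 78 to 49 bases before one of 5 annotated starts and inside the annotated gene, since other starts lie further upstream. The Fos (chr12:85473640-85473889, plus strand) and Jun (chr4:95052223-95052472, minus strand) sequences are the 250 bases before the start. Capitals mark a CArG box or TGACG on either strand.
Egr2: ctcagtCCATATATGGgcagcgaCGTCAcg
Fos: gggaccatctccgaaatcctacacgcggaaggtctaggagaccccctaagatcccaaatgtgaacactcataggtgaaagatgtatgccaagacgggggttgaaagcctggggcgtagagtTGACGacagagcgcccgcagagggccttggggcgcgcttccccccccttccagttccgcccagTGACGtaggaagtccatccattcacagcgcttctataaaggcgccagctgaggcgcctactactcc
Jun: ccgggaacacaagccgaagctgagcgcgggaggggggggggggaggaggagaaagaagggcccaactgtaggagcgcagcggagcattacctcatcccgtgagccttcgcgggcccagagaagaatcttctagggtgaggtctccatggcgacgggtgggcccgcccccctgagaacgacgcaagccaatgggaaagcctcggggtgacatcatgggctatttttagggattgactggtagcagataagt
The Egr2 stretch holds the CArG box CCATATATGG at bases 72 to 63 before the start and a TGACG on the other strand, spelled CGTCA here, at bases 55 to 51. The Fos window holds 2 copies of TGACG, at bases 129 to 125 and 66 to 62. The Jun window held none of the motifs searched on both strands, which were the CArG box (CC, 6 letters A or T, GG), TGACG and its palindromic form TGACGTCA, the AP-1 site TGANTCA, and the EGR site GCGNGGGCG. Every TGACGTCA also counts as TGACG. Among 32851 mouse windows of the same length, 1.47% held the CArG box, 1.55% TGACGTCA, 17.8% TGACG, 6.75% TGANTCA and 4.7% GCGNGGGCG. Of the 8 genes searched, Egr2 alone had a CArG box in its window. The 250 bases searched for Egr2 also held a second TGACG, at bases 111 to 107, outside the stretch shown. Nr4a1 had 4 copies of TGACG and 1 GCGNGGGCG, Fosb had 1 of each, Junb and Atf3 had 1 TGACG, and Jund had none of the motifs. The Nr4a1 window lies inside the annotated gene, and the Fosb window overlaps its annotated gene. A match is a string of letters and not evidence of binding, and a missing match concerns these windows and exact strings only. For example, the Jun window holds tgacatca, which differs from TGACGTCA by 1 letter and was not counted.

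Egr1 (chr18:34861207-34864956, GRCm38.p6), the most studied EGR factor, was higher in transgenic than in wild-type hearts, about 2-fold, both after TAC and between the single sham arrays. Its intensity was 2798 and 1940 in the transgenic TAC arrays and 1721 in the transgenic sham array, against 1419 and 1059 in the wild-type TAC arrays and 829 in the wild-type sham array. All 3 transgenic arrays lay above all 3 wild-type arrays, as for 7.59% of all tested genes, and even the transgenic sham array exceeded both wild-type TAC arrays. Over both surgeries the difference was log2 0.97 ± 0.17 (SE; 1.96-fold, 95% interval 0.58 to 1.36, 3 against 3 arrays, limma adjusted p = 0.0409). Egr1 was the 1 of 8 tested genes that passed this test, which 106 of 11167 genes (0.949%) passed, 74 of them higher in transgenic hearts (0.663%). In whole heart tissue, a change in the number of cells of a type and a change in RNA per cell cannot be told apart.

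The call for Egr1 rested on most of the arrays. Without transgenic TAC 2 it held (log2 1.13, adjusted p = 0.00542), and it was lost without transgenic TAC 1 (adjusted p = 0.0538), wild-type TAC 1 (0.0903), wild-type TAC 2 (0.256), wild-type sham (0.346) or transgenic sham (0.350). The difference stayed above 0 in each of the 15 alternatives run and passed in 2 of them, the other being the fit without an intensity filter (adjusted p = 0.0266). Without either sham array the estimate compared TAC arrays only, so those fits repeat the comparison after TAC. The steady direction adds no support. Egr1 has 1 bright probe, so the alternatives of probe, filter, floor and trend leave its estimate unchanged. With every transgenic array above every wild-type one, leaving arrays out could not turn it.

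**Figure D1:**
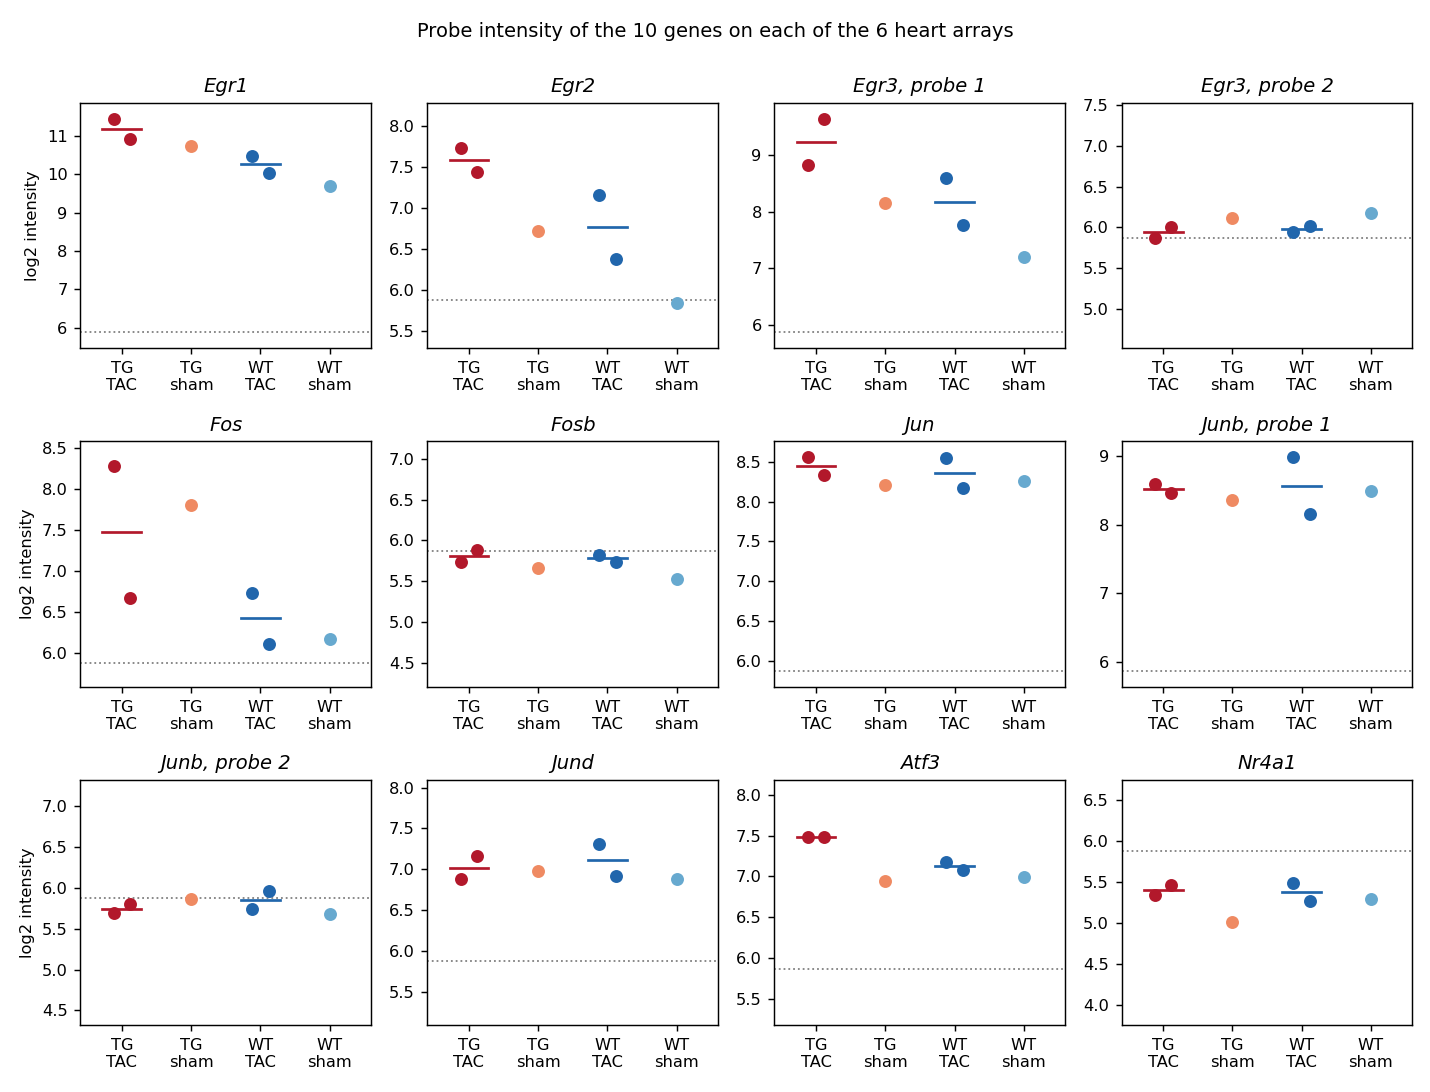
Log2 intensity (y axis) of the 12 probes of the 10 genes on the 6 arrays, by group (x axis: transgenic TAC, transgenic sham, wild-type TAC, wild-type sham); each point is 1 array, the bar is the group mean and the dotted line the intensity filter of 58.7. Egr1 separates the genotypes on all arrays, whereas Jun, Junb and Jund do not, and Fosb, Nr4a1 and the second Junb probe lie below the filter.

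Egr2 and Egr3, the related zinc finger factors, had differences of like size that did not pass. Egr2 (chr10:67534469-67542188), whose CArG box is shown above, stood at 213 and 174 in transgenic TAC arrays and 106 in transgenic sham, against 143 and 83.5 in wild-type TAC arrays and 57.4 in wild-type sham. The genotypes overlapped, since wild-type TAC 1 exceeded transgenic sham, but within each surgery every transgenic array was above every wild-type one. The difference was log2 0.84 ± 0.20 (1.79-fold, interval 0.40 to 1.28, adjusted p = 0.108). The wild-type sham value lies just below the intensity filter; no background was subtracted here, and a fold against so dim a value may understate the change.

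The brighter Egr3 probe (chr14:70077317-70082613) read 449 and 792 in transgenic TAC arrays and 282 in transgenic sham, against 385 and 217 in wild-type TAC arrays and 146 in wild-type sham. It was highest in transgenic TAC 2, where Egr1 and Egr2 were highest in transgenic TAC 1, and again the genotypes separated within each surgery and overlapped across them. The difference was log2 1.01 ± 0.26 (2.02-fold, interval 0.43 to 1.60, adjusted p = 0.141), and without transgenic TAC 1 it passed (1.24, adjusted p = 0.0488). The other Egr3 probe, just above the filter at a geometric mean of 65.0, went another way. It read 58.5, 64.3 and 69.4 in transgenic TAC 1, TAC 2 and sham, against 61.4, 65.0 and 72.3 in the same wild-type groups, a difference of -0.05 (adjusted p = 0.908 over 17442 probes). With the median over probes, the Egr3 difference between genotypes was 0.48.

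Transgenic arrays lay above wild-type arrays within both surgeries for Egr1, Egr2 and Egr3 and for no other gene of the 8, a count of 3 of 8 where 11.4% of all tested genes did so. The 3 genes were also the members that lay higher after TAC within both genotypes and between genotypes at once, which 2.62% of tested genes did. These values are the ones the tests above use and add no separate evidence.

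Fos (chr12:85473890-85477274), the AP-1 subunit known for short bursts of transcription, had the largest genotype difference of the 8 tested members and the largest error. It read 312 and 102 in transgenic TAC arrays and 223 in transgenic sham, against 106 and 68.9 in wild-type TAC arrays and 72.0 in wild-type sham. Transgenic TAC 2 fell among the wild-type arrays, just below wild-type TAC 1, while the other transgenic arrays lay well above all 3. The difference was log2 1.25 ± 0.36 (2.38-fold, interval 0.43 to 2.07, adjusted p = 0.198). Without transgenic TAC 2 it was 1.77 ± 0.19 and passed (adjusted p = 0.00233), as did Egr1 and Egr2 (0.93, adjusted p = 0.0417); 473 of all tested genes passed in that fit. The Fos gap between the transgenic TAC arrays, log2 1.62, was thus larger than its difference between genotypes.

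Fosb (chr7:19302696-19310118), the close relative of Fos, lay close to the array medians of 56.3 to 56.4. It read 53.2 and 59.2 in transgenic TAC arrays and 50.6 in transgenic sham, against 56.5 and 53.4 in wild-type TAC arrays and 46.3 in wild-type sham. It lay below the intensity filter, and a fit without the filter gave 0.06 between genotypes (unadjusted p = 0.461).

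The 3 JUN genes, the partners of FOS proteins in AP-1, showed no separation of the genotypes. Jun (chr4:95049036-95052222) read 376 and 323 in transgenic TAC arrays and 297 in transgenic sham, against 374 and 288 in wild-type TAC arrays and 306 in wild-type sham. Its difference was log2 0.04 ± 0.16 with an interval of -0.32 to 0.40 (adjusted p = 0.959). The lower bound of the Egr1 interval, 0.58, lies above this range; the difference between the genes was not tested.

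Junb (chr8:84976909-84978748), often a weaker activator than JUN, read 387 and 351 in transgenic TAC arrays and 329 in transgenic sham, against 504 and 286 in wild-type TAC arrays and 358 in wild-type sham. Its highest and lowest arrays were both wild-type TAC, a gap of log2 0.82, and the genotype difference was -0.07 ± 0.21 (interval -0.54 to 0.40, adjusted p = 0.946). The other Junb probe lay between 51.1 and 62.2 on all arrays, below the filter by its mean. Jund (chr8:70697739-70700616), the JUN gene with the steadiest expression in many cells, read 117 and 143 in transgenic TAC arrays and 126 in transgenic sham, against 159 and 121 in wild-type TAC arrays and 118 in wild-type sham. The groups overlapped, with a difference of -0.03 ± 0.15 (interval -0.38 to 0.32, adjusted p = 0.967).

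Atf3 (chr1:191170296-191183333), a stress-induced bZIP factor, was higher on the transgenic TAC arrays than anywhere else. It read 179 and 178 there and 123 in transgenic sham, against 145 and 135 in wild-type TAC arrays and 127 in wild-type sham. The genotype difference over both surgeries was 0.22 ± 0.14 (interval -0.09 to 0.54, adjusted p = 0.616). Nr4a1 (chr15:101253902-101274795) was the dimmest member, at 40.5 and 44.1 in transgenic TAC arrays and 32.3 in transgenic sham, against 44.7 and 38.6 in wild-type TAC arrays and 39.1 in wild-type sham. These values lie below the filter and overlap, and the fit without it gave -0.08 (unadjusted p = 0.367).

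Over the 8 tested members, 6 differences between genotypes were above 0 and the median was log2 0.53, where 47.6% of all tested genes were above 0 and their median was -0.01. An unadjusted p under 0.05 was reached by 4 members, Egr1, Egr2, Egr3 and Fos, all higher in transgenic hearts, and by 11.5% of all tested genes, 5.65% being higher. The members were chosen with earlier results in view, so these counts describe them and do not test them.

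**Figure D2:**
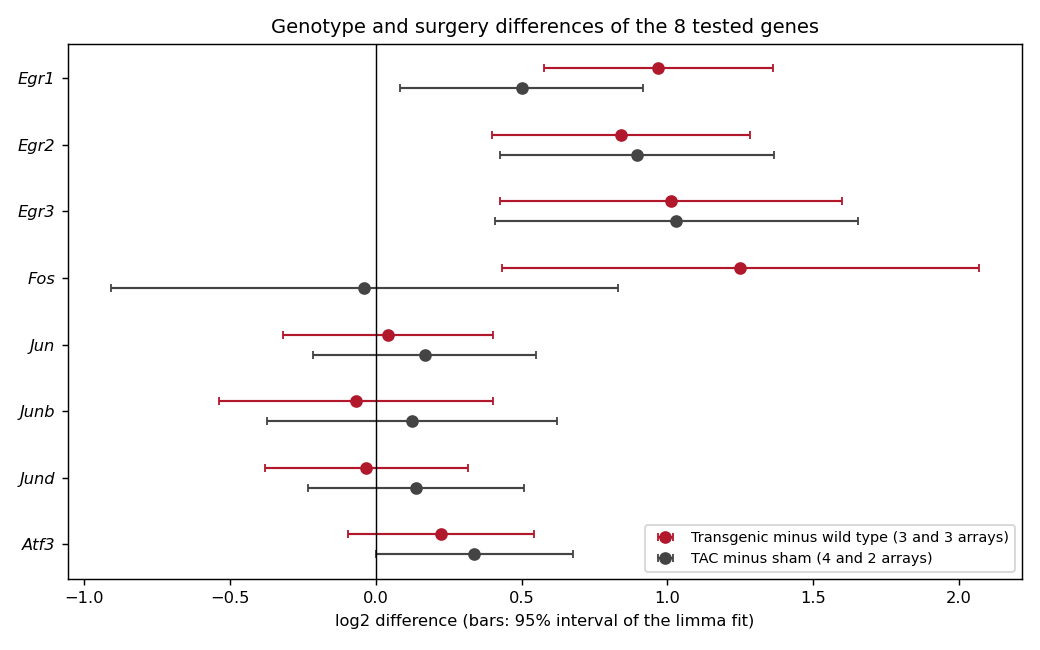
Log2 differences (x axis) of the 8 tested members, transgenic minus wild type over both surgeries and TAC minus sham over both genotypes; points are limma estimates and lines their 95% intervals. Egr1, Egr2, Egr3 and Fos stand at 0.84 to 1.25 between genotypes, with Egr1 past the test, and Jun, Junb and Jund near 0 in both comparisons.

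Between TAC and sham hearts of both genotypes, which asks how pressure overload moved these genes after 3 weeks, 7 of the 8 members had differences above 0 and none passed. The test called 1 of 11167 genes (0.00895%), the skeletal alpha-actin gene Acta1; 1034 genes (9.26%) had an unadjusted p under 0.05, and 4.76% had one with a higher level after TAC. Among the members 4 did so: Egr1, Egr2, Egr3 and Atf3. Without 1 array at a time, between 0 and 37 genes passed.

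The Egr genes had the largest values. From the intensities above, Egr2 was 1.86-fold higher after TAC (log2 0.90 ± 0.21, interval 0.43 to 1.37, 4 against 2 arrays, adjusted p = 0.274), and Egr3 2.04-fold (1.03 ± 0.28, interval 0.41 to 1.65, adjusted p = 0.339). For Egr3 the dimmer probe lay lower after TAC, at -0.19 ± 0.09 (adjusted p = 0.671), and the median over probes gave 0.42. Egr1 stood at 0.50 ± 0.18 (1.42-fold, adjusted p = 0.457). Within each genotype the TAC arrays of all 3 Egr genes lay above the sham array, but across genotypes they overlapped, because the transgenic sham values reached those of wild-type TAC hearts.

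Atf3 was the tested member whose 4 TAC arrays, at 135 to 179, all lay above both sham arrays, at 123 and 127; such a separation upward was shown by 8.39% of all tested genes. Its difference was 0.34 ± 0.15 (adjusted p = 0.538), and it stood at 0.14 without transgenic sham and 0.54 without wild-type sham. Those values are the differences within wild-type hearts and within transgenic hearts, since the fit then has a sham array of that genotype only. Fos did not follow surgery, at -0.04 ± 0.38 (adjusted p = 0.986): one transgenic TAC array was above and the other below the transgenic sham array. Jun, Junb and Jund stood at 0.17 ± 0.17, 0.12 ± 0.22 and 0.14 ± 0.16, with adjusted p between 0.809 and 0.897. Below the filter, Fosb had 0.20 (unadjusted p = 0.0435, all TAC arrays above both sham arrays) and Nr4a1 0.24 (unadjusted p = 0.0169, arrays overlapping).

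The median difference of the 8 members between TAC and sham was 0.25, against -0.01 over all tested genes, of which 48.6% were above 0. TAC arrays lay above sham arrays within both genotypes for 4 of 8 members (Egr1, Egr2, Egr3 and Atf3) and for 15.2% of tested genes.

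The comparisons within 1 surgery or 1 genotype rest on fewer arrays and none called a member. After TAC, transgenic against wild type, 23 of 11167 genes passed (0.206%; 5.76% had an unadjusted p under 0.05) and the members stood at 0.93 ± 0.23 for Egr1 (adjusted p = 0.356), 0.82 ± 0.26 for Egr2 (0.612), 1.05 ± 0.35 for Egr3 (0.643), 1.06 ± 0.46 for Fos (0.866) and 0.36 ± 0.18 for Atf3 (0.961). Both transgenic TAC arrays lay above both wild-type ones for Egr1, Egr2, Egr3 and Atf3, as for 15.5% of tested genes. Single arrays moved these values widely. Without transgenic TAC 2, Egr1 (1.19, adjusted p = 0.0282) and Fos (1.87, adjusted p = 0.0112) passed and Egr3 stood at 0.64. Without transgenic TAC 1, Fos stood at 0.25, Egr1 at 0.66, Egr2 at 0.67 and Egr3 at 1.45, and none passed. Without wild-type TAC 2, Egr1 stood at 0.72, Egr2 at 0.43, Egr3 at 0.63 and Fos at 0.75, with an adjusted p of 1.00 for each. In the sham pair, 1 array each with no replicate check, the transgenic value was 2.08-fold the wild-type value for Egr1, 1.85-fold for Egr2, 1.93-fold for Egr3 and 3.10-fold for Fos. For Jun, Junb, Jund and Atf3 the sham pair differed by log2 -0.04, -0.12, 0.09 and -0.04. The sham pair also differed in Xist, described below, at log2 5.41 in the transgenic and 10.50 in the wild-type array. Genotype and Xist level cannot be told apart in this pair.

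TAC against sham was also set out within each genotype, as 2 TAC arrays with 1 sham array, and the Egr genes had values above 0 in both. In transgenic hearts the differences were 0.44 ± 0.29 for Egr1, 0.86 ± 0.32 for Egr2, 1.08 ± 0.43 for Egr3, -0.33 ± 0.56 for Fos and 0.54 ± 0.22 for Atf3. Xist was high on both transgenic TAC arrays and low on transgenic sham, so among these arrays surgery and Xist level cannot be told apart. In wild-type hearts they were 0.57 ± 0.29 for Egr1, 0.93 ± 0.32 for Egr2, 0.98 ± 0.43 for Egr3, 0.25 ± 0.56 for Fos and 0.14 for Atf3. With Xist as a covariate the transgenic differences were 0.08 for Egr1, 0.12 for Egr2 and 0.13 for Egr3, with errors of 0.46 to 0.62. The wild-type ones were 0.74, 1.29 and 1.44. Each sham group holds 1 array, so the Xist slope of that fit comes from the TAC pairs alone. It rests mostly on wild-type TAC 1 and 2, at log2 10.50 and 5.38, against 10.36 and 11.03 in the transgenic pair. Without the covariate, no gene passed limma's test in either genotype (0%). An unadjusted p under 0.05 was reached by 4.86% of genes in transgenic and 3.56% in wild-type hearts.

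The test of whether the TAC response differed between genotypes called no gene (0%; 1.64% at an unadjusted p under 0.05). The difference of the responses, transgenic minus wild type, was -0.13 ± 0.41 for Egr1, -0.07 ± 0.45 for Egr2, 0.10 ± 0.60 for Egr3, -0.57 ± 0.80 for Fos and 0.40 ± 0.32 for Atf3, with adjusted p of 1.00 for each. With errors of this size, a difference as large as the TAC responses themselves was not detectable with these arrays.

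The arrays of a group were themselves far apart for several of these genes. Transgenic TAC 1 exceeded transgenic TAC 2 by log2 0.53 for Egr1, 0.29 for Egr2 and 1.62 for Fos but lay 0.82 below it for Egr3. Wild-type TAC 1 exceeded wild-type TAC 2 by 0.42 for Egr1, 0.78 for Egr2, 0.82 for Egr3, 0.62 for Fos and 0.82 for Junb. The gaps in the transgenic and wild-type TAC pairs were 0.0055 and 0.10 for Atf3, 0.22 and 0.38 for Jun, and 0.29 and 0.39 for Jund. For Junb the transgenic gap was 0.14. Transgenic TAC 1 was the highest array for 5 of the 8 members, wild-type TAC 1 for 2 and transgenic TAC 2 for 1.

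**Figure D3:**
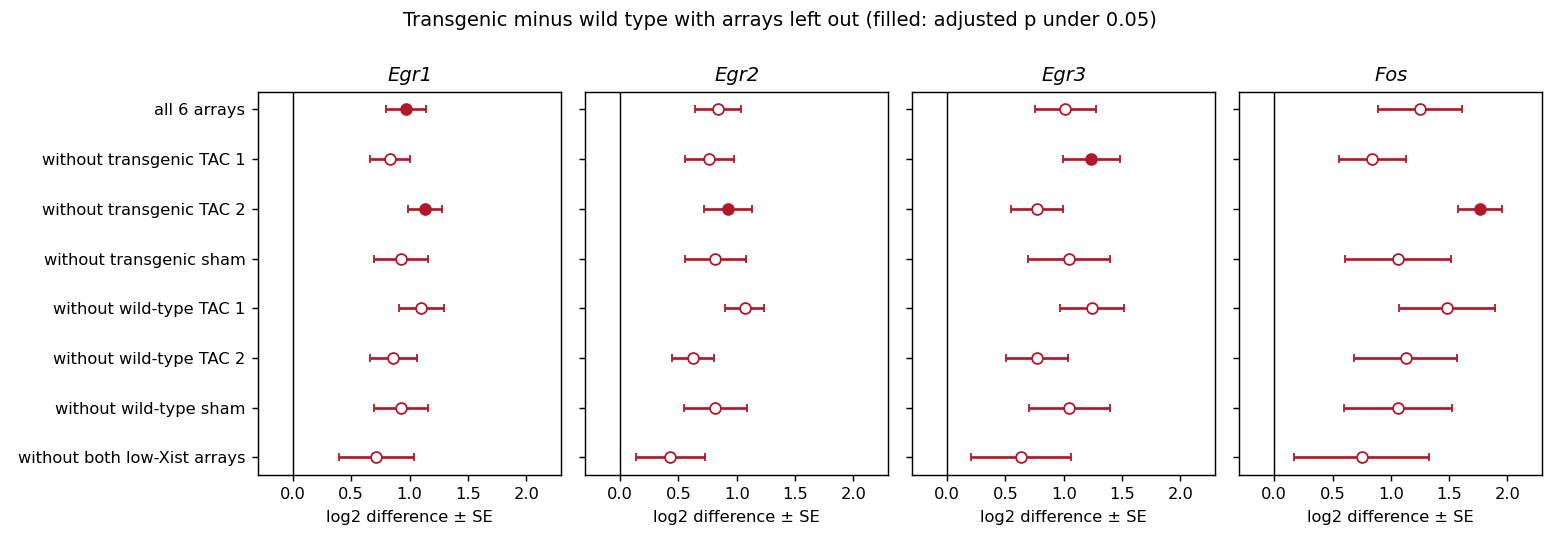
Log2 difference of transgenic minus wild type over both surgeries (x axis) for Egr1, Egr2, Egr3 and Fos, with all arrays and with arrays left out; lines are SE and filled points have an adjusted p under 0.05. Every value is above 0, and which gene passes depends on which array is left out. Without either sham array, and without both arrays of low Xist, the value compares TAC arrays only.

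Xist, the RNA that silences 1 X chromosome in females, was low on transgenic sham and wild-type TAC 2 (log2 5.41 and 5.38) and high on the other 4 arrays (10.36 to 11.03); the labels give no sex. Without those 2 arrays, both transgenic TAC arrays, wild-type TAC 1 and wild-type sham remained. The genotype difference then compared TAC arrays only, with a lone wild-type one, and could not check the difference between sham hearts. It was 0.72 ± 0.32 for Egr1, 0.43 ± 0.29 for Egr2, 0.63 ± 0.42 for Egr3 and 0.75 ± 0.58 for Fos. With Xist as a covariate Egr1 had an adjusted p of 0.109. Kdm4a, the gene of the transgene, read 108, 87.1 and 101 on transgenic TAC 1, TAC 2 and sham, against 90.8, 99.4 and 104 in the same wild-type groups by its brightest probe. Another Kdm4a probe read 116, 80.0 and 131 on those transgenic arrays, against 86.9, 84.5 and 90.1 on the wild-type ones, so that transgenic TAC 1 and sham lay above all wild-type arrays and transgenic TAC 2 below them. Neither the transgene's species nor where the probes lie in it is known here, so Kdm4a does not settle the genotype labels.

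Other genes of the pathway were taken from lists chosen with earlier results of these data known. Of 51 other immediate early genes, 38 were tested between genotypes, 23 had a difference above 0 and 1 passed, with a median of 0.07. That gene was Phlda1, which encodes a pleckstrin homology domain protein induced by growth factors, at 1.09 ± 0.20 (adjusted p = 0.0409); it passed in 4 of 15 alternatives, and the call was lost without transgenic sham, wild-type sham or either wild-type TAC array (adjusted p = 0.217 to 0.312). Gadd45b (-0.61 ± 0.13, adjusted p = 0.0784) and Gadd45g (-0.60 ± 0.15, 0.141), small stress response proteins, stood lower in transgenic hearts, and the growth factor gene Hbegf higher (0.49 ± 0.16, 0.262), without passing.

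Of 13 feedback inhibitors of MAPK and immediate early signalling, 11 were tested, 7 were above 0 and 1 passed, with a median of 0.11. Dusp4, a phosphatase that inactivates MAPK and is itself induced by ERK signalling, rose 1.08 ± 0.12 on the log2 scale (adjusted p = 0.00392). It stood at log2 7.49, 7.50 and 7.30 on transgenic TAC 1, TAC 2 and sham, against 6.41, 6.35 and 6.30 in the same wild-type groups, an even spread unlike that of the Egr genes. It passed in 12 of the 14 alternatives that tested it, the exceptions being those without wild-type sham (adjusted p = 0.0655) and without both arrays of low Xist (0.801). The related phosphatase Dusp6 (0.51 ± 0.13, 0.131) and the inhibitors Spred1 (0.37, 0.403) and Spry4 (0.23, 0.506) had values above 0 that did not pass.

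None of the 24 tested upstream kinases and factors passed; 7 were above 0, with a median of -0.09. The smallest p belonged to Myocd, a cofactor of serum response factor, at -0.73 ± 0.16 (adjusted p = 0.0989), and Map2k2, a MAPK kinase, at -0.46 (0.229). Of 12 tested AP-1 and other bZIP partners 9 were above 0 and none passed, with a median of 0.18; Fosl2, a FOS family member, stood at 0.48 (adjusted p = 0.430) and Atf5, a bZIP factor of the stress response, at 0.49 (0.261), while Ddit3, a bZIP factor induced by endoplasmic reticulum stress, stood at -0.37 (0.302). Between TAC and sham no gene of these 4 lists passed. The counts above 0 were then 26 of 38 other immediate early genes, 6 of 11 feedback inhibitors, 11 of 24 upstream genes and 9 of 12 partners, with medians of 0.10, 0.02, 0.00 and 0.09, and the smallest p in the first list was that of Ccn2, a matricellular growth factor (1.09 ± 0.25, adjusted p = 0.274).

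**Figure D4:**
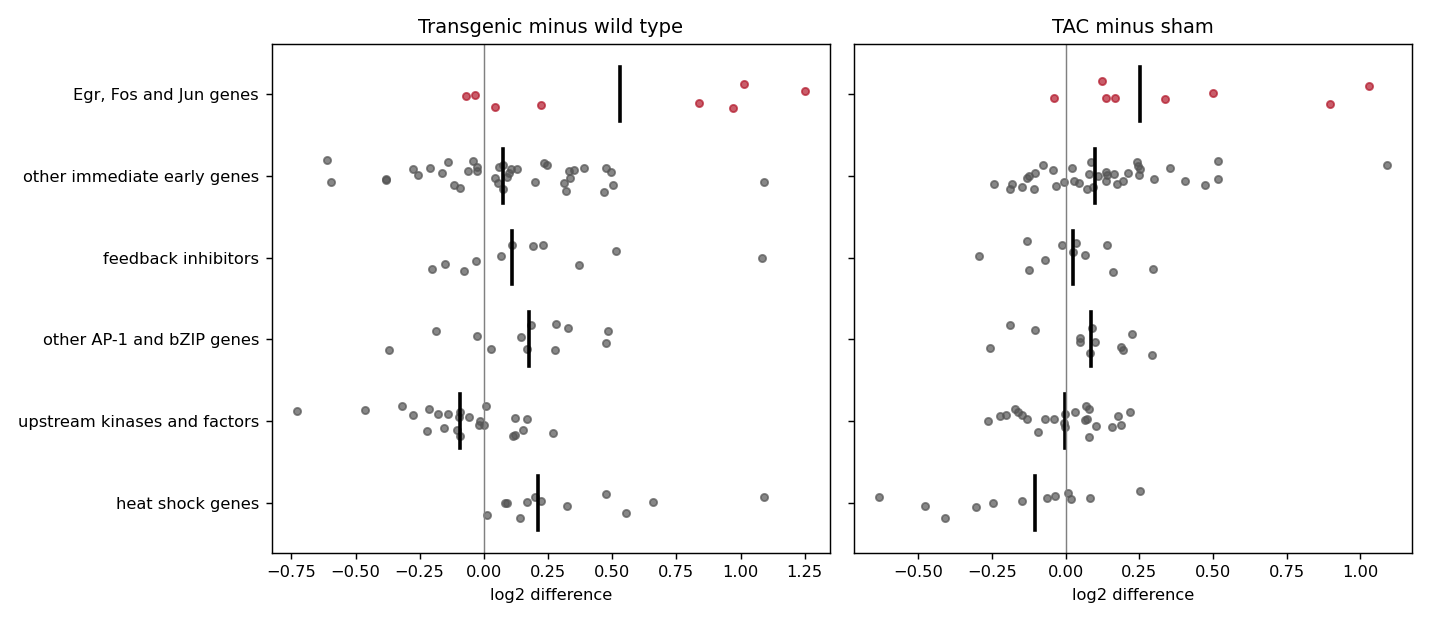
Log2 differences (x axis) of all tested genes of 6 lists (rows), for transgenic minus wild type over both surgeries and for TAC minus sham over both genotypes; each dot is a gene and the black bar the list's median. The members' median is 0.53 between genotypes and 0.25 between TAC and sham, and all 12 heat shock genes lie above 0 between genotypes.

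Of the heat shock genes, which many kinds of cell stress induce, all 12 were tested between genotypes and none passed. The 12 differences were above 0, with a median of 0.21 and values from 0.01 for Hspb1. Hspa1a stood at 1.09 ± 0.29 (adjusted p = 0.149) and Hsp90aa1 at 0.66 ± 0.15 (0.103). Much of the Hspa1a value came from transgenic sham, at log2 9.36. The transgenic TAC arrays read 7.89 and 7.96, and the wild-type arrays 7.20 to 7.48. After TAC the largest difference of the list was 0.59. Their summed intensity was 48840 to 53340 on transgenic arrays and 45000 to 46390 on wild-type arrays. Between TAC and sham 4 of 12 were above 0. Their part in the Egr and Fos differences was not tested.

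Cell type markers were set beside the members, and their part in the members' differences was not tested. Between genotypes, 9 of 9 tested macrophage markers, 10 of 11 fibroblast markers, 5 of 9 cardiomyocyte markers, 2 of 5 lymphocyte markers, 1 of 9 endothelial markers, and none of the 8 smooth muscle, 3 neutrophil, 3 adipocyte and 2 skeletal muscle markers were above 0. The 1 that passed was Acta2, smooth muscle actin, at -1.67 ± 0.23 (adjusted p = 0.0118; 0.201 with the median over its probes and 0.0925 without both arrays of low Xist), and the summed smooth muscle list lay at 7290 to 11560 on transgenic and 16430 to 24850 on wild-type arrays. Without Acta2 that sum was 4589 to 8064 on transgenic and 7782 to 9488 on wild-type arrays, which overlap. The macrophage sum was 5602 to 6857 on transgenic and 3859 to 5463 on wild-type arrays, and the cardiomyocyte sum 98780 to 106500 and 98670 to 99440. Between TAC and sham, 10 of 11 fibroblast, 8 of 9 macrophage, 8 of 9 endothelial, 6 of 8 smooth muscle, 5 of 5 lymphocyte, 4 of 9 cardiomyocyte and 2 of 3 neutrophil markers were above 0, no adipocyte or skeletal muscle marker was, and none passed. The fibroblast sum was 25590 to 37630 after TAC and 21010 to 22800 after sham.

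The genes whose profile over the 6 arrays was most like that of a member were found by the root mean square (RMS) difference of log2 values, each gene centred on its own mean. For Egr1 these were Etv5, an ETS family transcription factor, at an RMS of 0.136, Gng13, a G protein gamma subunit, at 0.140, and Bcl2, an inhibitor of apoptosis, at 0.169. Egr2 was most like Myh10, a nonmuscle myosin heavy chain (0.194), Tnfrsf12a, a receptor of the TNF receptor family (0.223), and Ncam1, a cell adhesion molecule (0.234). Egr3 was most like Itgbl1 (0.281), the transcription factor gene Sox9 (0.292) and the keratin gene Krt18 (0.310). Fos was most like Akr1c12 (0.245), Fbxo27 (0.304) and Etv5 (0.336), so Etv5 stood near both Egr1 and Fos. These are the closest of 11167 genes on 6 arrays, given as a description.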

How the data were processed

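Total RNA from mouse hearts was hybridized to 6 Illumina bead arrays; per the labels' protocols, biotinylated cRNA was made after Trizol extraction and DNase treatment. The deposited values are linear intensities of 30.8 to 25873, 1 for each probe on each array. Array medians of 56.3 to 56.4 and sorted columns within log2 0.00644 of their mean are the pattern quantile normalization leaves; no source used here names the software or the background correction. The number of arrays limits the precision. Groups came from sample titles.

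Deposited values were not renormalized; a floor of 32 raised 12 of them before the log2 step. The platform annotation named 1 gene for 34885 of 45281 probes, several for 18 and none for 10378. The brightest probe stood for a gene. Genes above the 50th percentile of probes with 1 symbol were tested: 11167 of 19057. Tests were limma's lmFit and trended eBayes (version 3.58.1, R 4.3.3) with Benjamini-Hochberg adjustment and a threshold of 0.05. A model of surgery plus genotype had 3 residual and 6.14 prior degrees of freedom, and a fit of the 4 groups 2 and 6.25; in the second, a lone sham array borrows the spread of the TAC arrays. The steps were tested on simulated data. Gene positions, promoter windows and gene names are RefSeq's of GRCm38.p6; motifs were searched on both strands. Egr1 and Egr3 promoters were not used here.

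The members, the lists and the tests were chosen with earlier results of these data known. Named genes are the members, the list genes with the smallest p among those tested, and for each member spanning at least 1 on the log2 scale the 3 genes of most like profile. The labels do not say whether replicate numbers pair the arrays, and the main fits do not pair them. The differences of replicate 1 minus 2 in transgenic and wild-type TAC arrays correlated at -0.0293 over the tested genes, which does not settle it. The alternatives were the median over probes, every probe, no filter, a 75th percentile filter, a floor of 64, cyclic loess, no trend, each array left out, both arrays of low Xist left out, Xist as a covariate and a replicate block.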

Additional observations from a re-analysis of the deposited data

How the results depend on the processing

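Of 656 values of tested members under alternatives, 614 kept their direction and 42 turned. Many could not turn, since the filter settings, every probe, no trend and the replicate block leave a member's estimate as it was. The count is therefore no measure of robustness. Where every probe was tested, only a member's brightest probe was counted. So counted, no value of Egr1, Egr2, Egr3 or Fos between genotypes over both surgeries or after TAC turned. The dimmer Egr3 probe, left out of this count, stood at -0.05 over both surgeries and -0.04 after TAC, opposite to the brighter one. In limma, between genotypes over both surgeries, 106 genes and 1 member (Egr1) passed. With the median over probes 49 genes passed, with every probe 69 and with the 75th percentile filter 44. With a floor of 64 it was 59 and with Xist as a covariate 54. In each of these fits 0 members passed, and the 75th percentile filter left only 4 members to test. With cyclic loess and with no intensity trend 0 members passed, and without both arrays of low Xist 0 genes. Without 1 array it was 24 to 473 genes and 0 to 3 members. After TAC, where 23 genes passed, it was 5 with the median over probes, 7 with every probe, 38 without a filter, 11 with the 75th percentile filter, 0 with a floor of 64, 10 with cyclic loess, 8 without a trend, 0 without both arrays of low Xist, and 0 to 189 genes and 0 to 2 members without 1 array. With the replicate number as a block over the TAC arrays 61 genes and 0 members passed (Egr1 0.93 ± 0.21, adjusted p = 0.0932). Whether the numbers pair the arrays is not stated in the labels. Between TAC and sham over both genotypes, where 1 gene passed, it was 2 without a filter, 2 with the 75th percentile filter, 0 without a trend, without both arrays of low Xist or with Xist as a covariate, and 0 to 37 without 1 array. In wild type alone, where 0 passed, it was 5 without a filter, 10 with Xist as a covariate and 0 to 11 without 1 array. In transgenic hearts alone, where 0 passed, it was 1 without a filter and 0 to 239 without 1 array. For the difference of the TAC responses it was 5 with Xist as a covariate and 0 to 1 without 1 array, and the members' median, 0.01, became -0.98 with Xist as a covariate.

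Members that turned in direction had small differences to begin with, apart from Fos and the difference of the TAC responses. Without both arrays of low Xist, Fos between TAC and sham was 0.56, and Jun between genotypes -0.10, the same after TAC. With Xist as a covariate, Jun after TAC was -0.10; in transgenic hearts TAC against sham was -0.12 for Jun, -0.65 for Junb and -0.39 for Jund; and the difference of the responses was -1.31 for Egr3, -0.40 for Jun and -1.13 for Junb. That difference was -0.11 for Junb with the median over probes and 0.092 for Egr2 with a floor of 64. Without 1 array, TAC against sham over both genotypes ranged over -0.35 to 0.35 for Fos and -0.047 to 0.30 for Junb. Between genotypes over both surgeries Jun ranged over -0.078 to 0.14, Junb over -0.31 to 0.16 and Jund over -0.13 to 0.10. After TAC, Jun ranged over -0.10 to 0.27, Junb over -0.45 to 0.37 and Jund over -0.29 to 0.10. TAC against sham ranged in transgenic hearts over -1.14 to 0.48 for Fos and -0.10 to 0.19 for Jund, and in wild-type hearts over -0.065 to 0.56 for Fos, -0.086 to 0.29 for Jun and -0.32 to 0.49 for Junb. The difference of the responses ranged over -0.39 to 0.14 for Egr1, -0.45 to 0.32 for Egr2, -0.32 to 0.51 for Egr3, -1.38 to 0.24 for Fos, -0.060 to 0.32 for Jun, -0.33 to 0.49 for Junb and -0.38 to 0.0067 for Jund. A TAC response within a genotype, and the difference of the responses, could not be fitted without that genotype's sham array, nor without both arrays of low Xist where that removes a sham array. The cause of these shifts was not tested, and the signal of Fosb, Nr4a1 and the dimmer Junb probe, below the intensity filter, and of the dimmer Egr3 probe, just above it, limits what those values show.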
